A study of Sus scrofa with 24 samples.

Results

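The infarct core of the heart was set against the border zone of the same animal in the 6 pigs that had received secretome. The pigs are numbers 11 to 16 of the labels, and each gave 1 infarct core and 1 border zone array, so 12 of the 24 arrays of the series enter the comparison as 6 pairs. The animals were domestic pigs in which a myocardial infarct was made without opening the chest and then reperfused. They were treated 1 month after the infarct through a catheter, with injections into the heart muscle along the border zone, and tissue was taken 1 month after treatment. The secretome is the mixture of products that apoptotic mononuclear cells of the blood release into their culture. All pigs of both arms also had oral aspirin (250 mg) and clopidogrel (300 mg) one day before the infarct and 100 mg and 75 mg daily afterwards. The other arm received the medium alone as a placebo, and its 3 pigs with core and border arrays (10, 18 and 40) served for the test of a difference between the arms. A normal region array existed for 4 of the 6 secretome pigs (11, 14, 15 and 16). The design names 8 pigs per arm, so 6 of the treated pigs are covered here. Core and border both come from hearts that were treated, and the border is the tissue that was injected, so the comparison holds no uninjured and no untreated tissue.

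When heart muscle dies after a coronary occlusion, phagocytes clear the dead cardiomyocytes and fibroblasts replace them with a collagen scar. In the weeks that follow, activated fibroblasts become matrix-producing cells that crosslink the scar and, with time, can take on expression of cartilage and tendon genes. The border zone holds surviving cardiomyocytes next to the scar, which work under raised wall stress and show fetal and stress genes such as the natriuretic peptides. Cardiomyocytes live on fatty acid oxidation and oxidative phosphorylation, so transcripts of the contractile apparatus and of mitochondria stand for muscle in whole-tissue RNA.

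Each 1-colour Agilent array reads 60-base probes. A level is given here as log2 of the processed signal relative to the 75th percentile of its array, so that 0 is the signal of a fairly bright probe, and levels are compared within a probe only. On the 12 arrays 66.1% to 74.6% of probes were well above background and none was saturated. The raw 75th percentile, which the scaling divides out, was higher on the core array than on the border array in 6 of 6 pigs (by a ratio of 1.06 to 1.46). The arrays fall into 2 groups by scan date, with 3 pigs each: pigs 12, 13 and 16 in scan series 1 and pigs 11, 14 and 15 in scan series 2. Core and border of a pig always share the series, but in pigs 11 and 15 they lie on different slides, and in the other 4 on the same slide. The labelled tissue was checked by its defining markers: 6 of the 8 cardiomyocyte markers had a named probe and all were well above background on every array, in the core as well. The core therefore still held muscle RNA. The fibroblast marker COL1A2 was well above background on all 12 arrays. No named probe was found for MYH6, COL1A1 or any of the 3 red cell markers.

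The core and the border differed in a large part of the measured transcriptome. Of 33202 probes kept, 6157 were higher in the core (18.5%) and 7299 lower (22%), at an adjusted p under 0.05 from a limma fit with the pig as a block. With 1 probe per gene, 1233 of 5936 genes were higher (20.8%) and 1491 lower (25.1%), and 564 and 536 of them differed by more than 2-fold. The difference had the same sign in all 6 pigs for 1066 of the higher and 1145 of the lower genes. For 501 genes (8.44%) the 6 core levels did not overlap the 6 border levels: they lay above for 337 genes and below for 164. The median gene read -0.07 in the core. All errors given below are standard errors of the fit over 6 pigs, on the log2 scale. In bulk tissue, fewer cells of a type and less RNA per cell cannot be told apart.

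The count rests on some animals more than on others. It was 13456 probes in all, and it fell to 7525 without pig 13, 8454 without pig 14 and 8661 without pig 16, while it was 15761 without pig 15. Fitted without the pig block, limma called 5978 probes. Scan series 1 alone gave 9696 called probes. Scan series 2 alone gave 0 (6871 at an unadjusted p under 0.05, smallest limma adjusted p = 0.0911). All 13456 called probes had the same sign in both series. Those probes were called on the pigs of both series together, so the shared sign is not a separate test. The share of called probes that were higher was 45.8%, and it was 31.1% with normexp background correction and 51.1% with the percentile taken over probes detected on all arrays.

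Sorted by function, the gene lists separated along scar and muscle. The lists were chosen with earlier results of these data known, so their order is a description and not a test. Among 43 lists, cartilage, fibroblast and scar matrix genes had the highest medians (2.59, 1.95 and 1.74), followed by macrophage (1.22) and complement genes (1.1). At the other end stood the respiratory chain (-1.37), the TCA cycle (-1.35), the creatine kinase and myoglobin group (-1.33), fatty acid oxidation (-1.30) and the sarcomere (-1.16). Vessel, smooth muscle and cytosolic ribosome genes lay near the median of all genes.

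**Figure D1:**
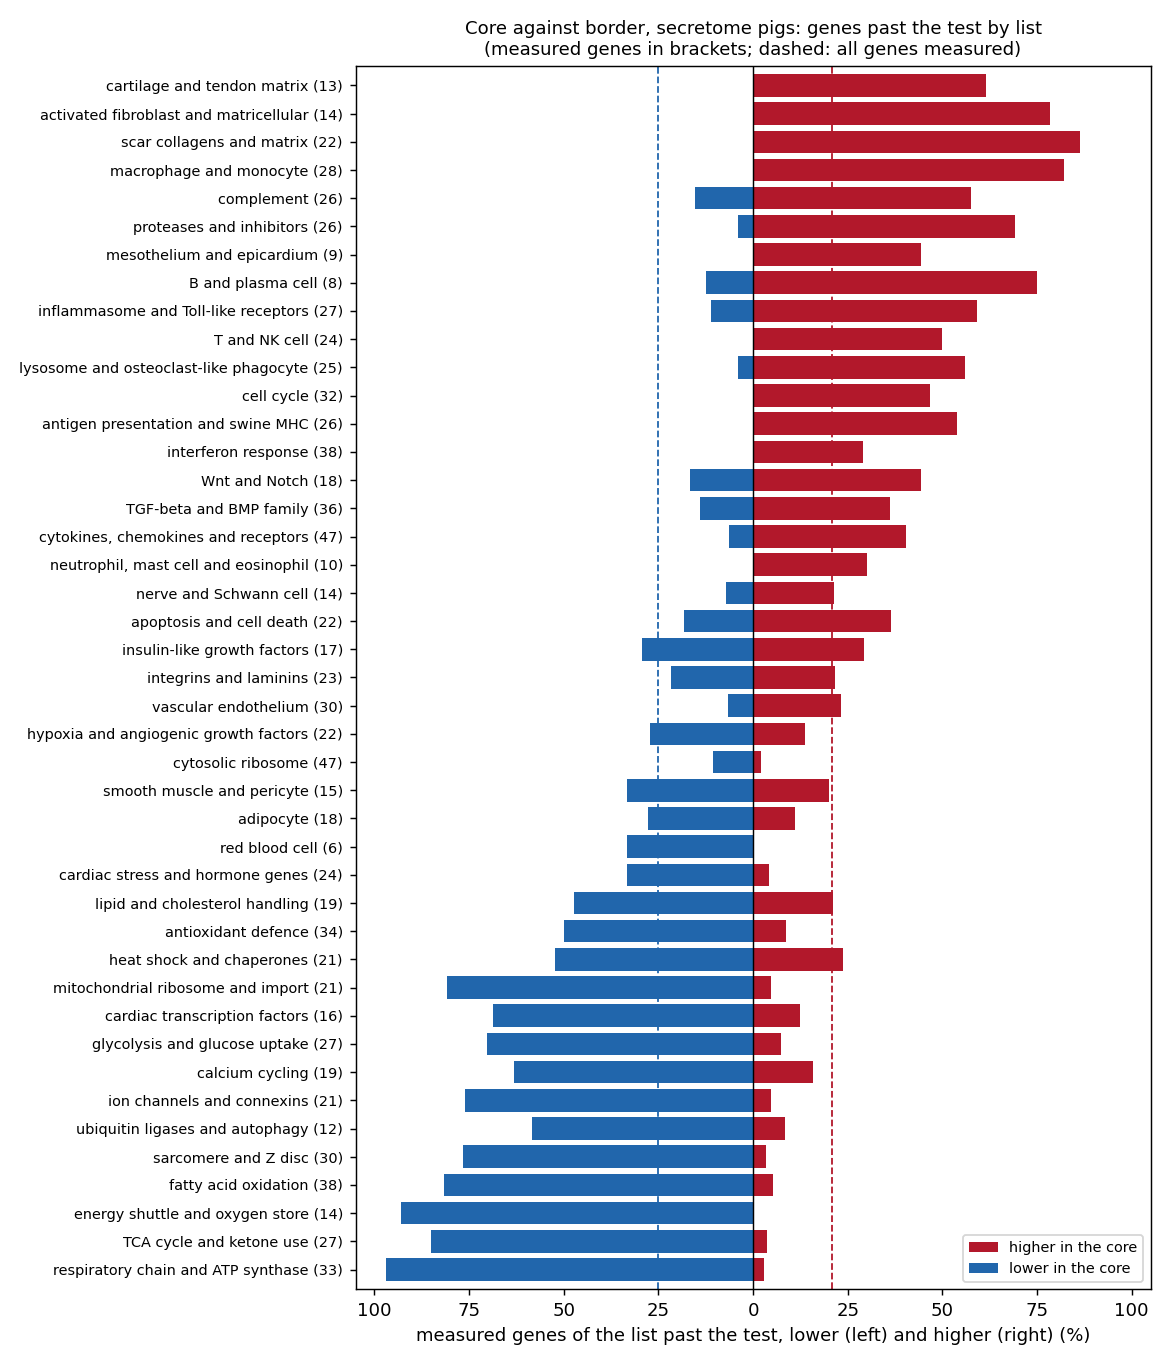
Percentage of the measured genes of each of 43 lists that passed the test (adjusted p under 0.05), with genes lower in the core drawn to the left and genes higher in the core to the right; brackets give the number of genes measured and dashed lines the percentages over all 5936 genes (20.8% higher and 25.1% lower). The lists are ordered by their median difference, and the respiratory chain has 32 of 33 genes lower, while scar collagens and matrix has 19 of 22 higher.

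Scar matrix formed the upper end of the comparison. In the list of scar collagens and matrix 19 of 22 measured genes rose in the core and none fell, against 20.8% higher over all genes, and in the list of activated fibroblast and matricellular genes 11 of 14 rose. Of the cartilage and tendon genes 8 of 13 rose and none fell. For 10 of 22 scar, 8 of 14 fibroblast and 5 of 13 cartilage genes no core level was as low as any border level. Over all genes 8.44% had no overlap, in either direction. The highest differences of all belonged to aggrecan and collagen XI, structural molecules of cartilage.

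Aggrecan (ACAN), the large proteoglycan of cartilage, read -2.88, -0.71 and 2.17 on the border arrays (lowest, median and highest) and 2.64, 3.91 and 5.83 on the core arrays. Every core level lay above every border level. It rose by 4.71 ± 0.94 on the log2 scale, 26.2-fold (adjusted p = 0.0100), with the smallest difference in pig 16 (0.77) and the largest in pig 13 (8.06). Another aggrecan probe read 4.63 and the third 0.60, which did not pass. The collagen XI chain COL11A1 read -4.59, -0.98 and 2.19 in the border and 3.34, 3.91 and 4.53 in the core, a rise of 4.70 ± 0.83 (25.9-fold, adjusted p = 0.00801), and all 5 of its probes rose. Its core levels spanned little more than 1 log2 unit, while its border levels spanned over 6. The border level of pig 11 was not well above background.

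Probes named FMOD and COLL11A1 are shown because they read the small leucine-rich proteoglycan that binds collagen fibrils and a collagen XI chain, the kind of transcript that marked the core most; the second name is kept as the array annotation spells it. Both are given 5′ to 3′ as they stand on the array, with no capitals since nothing in them is singled out.

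FMOD: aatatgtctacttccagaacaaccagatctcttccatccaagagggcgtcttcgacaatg
COLL11A1: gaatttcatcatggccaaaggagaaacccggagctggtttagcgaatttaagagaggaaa

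Fibromodulin (FMOD) read -5.40, -2.97 and -1.44 in the border and -0.54, 0.02 and 1.62 in the core, and rose by 3.55 ± 0.71 (11.7-fold, adjusted p = 0.0100). The probe named COLL11A1 read -7.36, -3.13 and -0.09 and 0.30, 1.58 and 2.36, and rose by 4.53 ± 0.79 (23.0-fold). In both, no core array reached down to a border array, and 5 of the 6 border arrays were well above background.

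Cartilage genes of lower signal moved the same way. Matrilin 3 (MATN3), an adaptor of cartilage matrix, rose by 2.62 ± 0.45 and COL9A2, a collagen IX chain, by 2.59 ± 0.44, with 1 and 2 of the 6 border arrays well above background. IBSP, bone sialoprotein, rose by 1.61 ± 0.18 from a signal well above background on 2 border and 5 core arrays. Tenomodulin (TNMD), a membrane protein of tendon, and ANGPTL7, a secreted angiopoietin-like protein, were among the called genes that varied most between pigs. TNMD read -7.11, -3.76 and 0.67 in the border and -1.35, 0.37 and 1.44 in the core (rise of 3.23 ± 0.88), and ANGPTL7 -5.92, -5.30 and -2.10 and -4.17, -0.87 and 1.49 (rise of 3.29 ± 1.05). Pig 16 ran against the other 5 pigs in both genes, with -0.49 and -0.67. For TNMD, with pig 11, 13 or 14 left out in turn it did not pass, at 2.65 to 2.87 (adjusted p = 0.0600 to 0.0759), and for ANGPTL7, with pig 11, 13 or 14 left out in turn it did not pass, at 2.53 to 2.84 (adjusted p = 0.0945 to 0.116).

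Among matricellular proteins, which signal to cells rather than bear load, tenascin C (TNC) read -4.75, -0.56 and 0.83 in the border and 1.13, 2.48 and 4.12 in the core. All 6 core arrays were above all border arrays, and TNC rose by 3.63 ± 0.79 (12.3-fold, adjusted p = 0.0123). Periostin (POSTN), made by activated fibroblasts, read -0.74, 3.41 and 4.77 in the border and 4.92, 5.64 and 6.49 in the core, and rose by 2.84 ± 0.69 (adjusted p = 0.0171); with pig 13 or 14 left out in turn it did not pass, at 2.59 to 2.74 (adjusted p = 0.0517 to 0.0540). In both genes pig 11 had the lowest border level (-4.75 and -0.74) and the largest difference. CTHRC1, a secreted protein of scar fibroblasts, rose by 3.63 ± 0.66 (12.4-fold), CTGF, a matricellular growth factor, by 1.88 ± 0.21, THBS1, thrombospondin 1, by 1.58 ± 0.25, and osteopontin (SPP1) by 3.07 ± 0.50. S100A4, a calcium-binding protein of fibroblasts and leukocytes, rose by 2.95 ± 0.30 with no overlap between the regions.

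Fibronectin (FN1), the provisional matrix on which a scar is laid down, read 1.90, 4.66 and 5.75 in the border and 6.71, 7.53 and 7.99 in the core. It rose by 3.04 ± 0.49 (8.20-fold, adjusted p = 0.00690), and the groups did not overlap. Versican (VCAN), a proteoglycan of loose matrix, rose by 2.20 ± 0.36, and P4HA1, a collagen prolyl hydroxylase, by 0.97 ± 0.17. Of the defining fibroblast markers COL1A2 read 2.13 ± 0.45 and lumican (LUM) 2.02 ± 0.51, both past the test, whereas decorin (DCN) read 0.86 ± 0.35 and did not pass (adjusted p = 0.0816). CDH11, a cadherin of mesenchymal cells, rose by 2.59 ± 0.35 and C1QTNF3, a secreted C1q-like protein, by 3.54 ± 0.89; for the latter, with pig 13 or 14 left out in turn it did not pass, at 3.22 to 3.27 (adjusted p = 0.0562 to 0.0612).

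Most macrophage genes rose in the core. Of the macrophage and monocyte genes 23 of 28 rose (82.1%, beside 20.8% of all genes) and none fell. The regions did not overlap in 10 of 28, beside 8.44% of all genes. Lysosome and osteoclast-like phagocyte genes rose in 14 of 25, with 1 lower (CHIT1, a chitinase of activated macrophages, which fell by 1.16 ± 0.24). All 5 measured defining macrophage markers passed: CD163 0.97 ± 0.17, CD14 0.63 ± 0.17, AIF1 1.47 ± 0.16, LYZ 4.21 ± 0.46 and TYROBP 1.21 ± 0.15. The list's median within a pig ran from 0.83 to 1.72 and was positive in 6 of 6.

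ACP5, the tartrate-resistant acid phosphatase of osteoclasts and macrophages, read 0.14, 1.06 and 1.62 in the border and 3.75, 4.78 and 6.43 in the core. The lowest core array stood well above the highest border array. The gene rose by 4.09 ± 0.21 (17.1-fold), and its adjusted p of 0.000559 was the smallest of all probes. CHI3L1, a secreted chitinase-like protein, read -5.86, -3.60 and -2.25 and -0.37, 0.79 and 2.57, and rose by 4.53 ± 0.49 (23.1-fold, adjusted p = 0.00326). Lysozyme (LYZ), the bacteriolytic enzyme of phagocytes, read -1.95, -0.17 and 1.68 and 2.54, 3.93 and 5.67, a rise of 4.21 ± 0.46 (18.5-fold); the largest difference was that of pig 15 (5.98). Neither gene overlapped between the regions.

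CCR1, a receptor for inflammatory chemokines, rose by 2.35 ± 0.15. Apolipoprotein E (APOE), the lipid carrier that macrophages secrete, read -3.57, -2.08 and -1.17 in the border and 0.16, 0.77 and 3.06 in the core and rose by 3.21 ± 0.30 (9.28-fold), again without overlap. SOAT1, which esterifies cholesterol, rose by 1.41 ± 0.18, and LIPA, the lysosomal acid lipase, by 1.41 ± 0.13, while CYP27A1, the mitochondrial sterol hydroxylase, fell by 1.95 ± 0.29. The 5 called genes of at least 2-fold whose differences varied least between the pigs were CD48 (1.30 ± 0.11), CSTB (1.13 ± 0.11), SLC7A7 (1.39 ± 0.11), PTGR1 (1.06 ± 0.11) and DOK2 (1.20 ± 0.11); CD48 is a surface molecule of leukocytes, CSTB the cathepsin inhibitor cystatin B and DOK2 a signalling adaptor of blood cells.

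In the list of proteases and their inhibitors 18 of 26 genes rose in the core (69.2%, beside 20.8% of all genes). The 1 gene that fell was MMP11, a stromelysin, by 1.1 ± 0.30. The list holds both kinds, and they were not counted apart. MMP9, a gelatinase of neutrophils and macrophages, read 0.46, 0.79 and 1.37 in the border and 2.41, 3.61 and 5.63 in the core and rose by 3.16 ± 0.43 (8.95-fold), with no overlap and the largest difference in pig 15 (4.96). Cathepsin K (CTSK), the collagen-degrading protease of osteoclasts, rose by 2.10 ± 0.23, and the urokinase PLAU by 1.17 ± 0.17, both without overlap. PRSS35, a trypsin-like protein, rose by 3.90 ± 0.52, and by 1.09 with normexp correction, from a signal well above background on 2 of 6 border arrays, so that the size of its rise is uncertain.

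**Figure D2:**
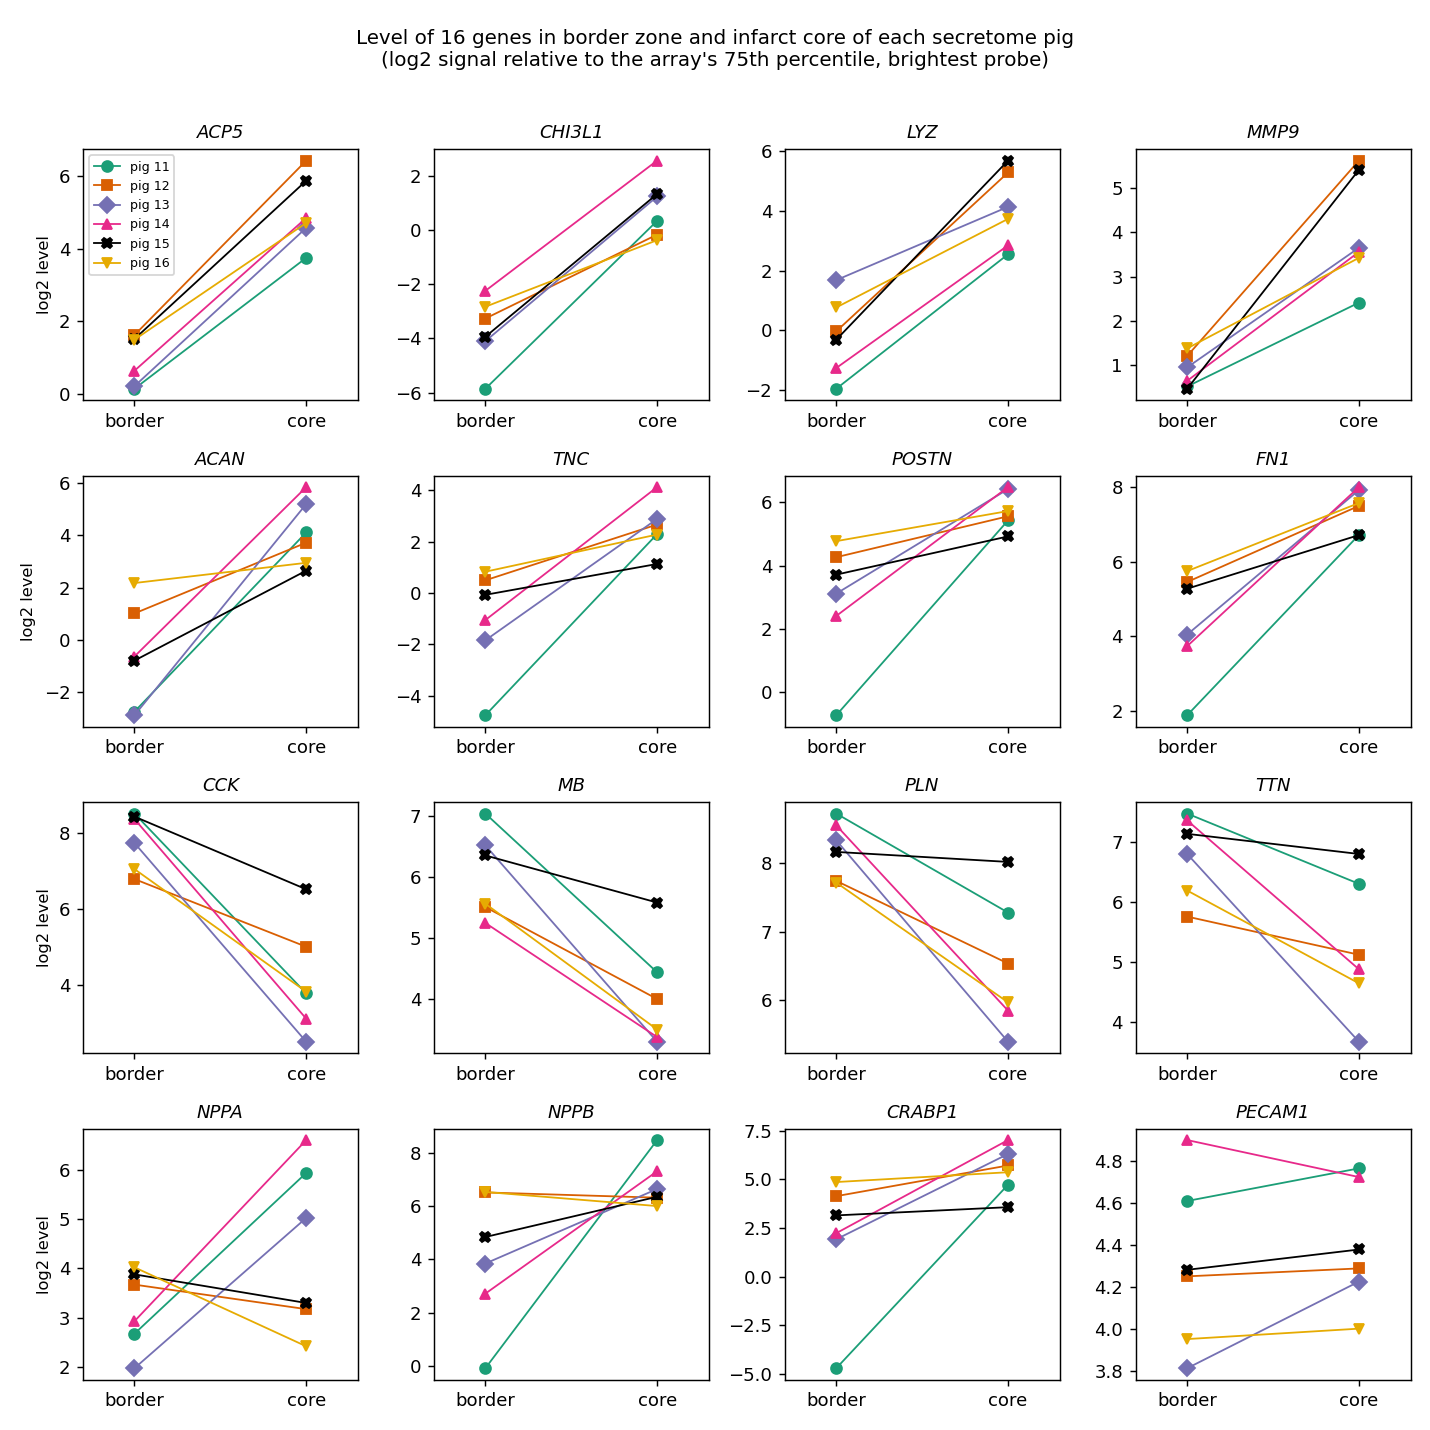
Log2 level (signal relative to the array's 75th percentile, brightest probe) of 16 genes in the border zone and the infarct core, with 1 line per secretome pig. The lines of ACP5, CHI3L1, LYZ, MMP9, ACAN, TNC, POSTN and FN1 climb in every pig, those of CCK, MB, PLN and TTN descend in every pig and least in pig 15 except for CCK, and those of NPPA go up in 3 pigs and down in 3.

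Lymphocyte genes were higher in the core as well. Of the T and NK cell genes 12 of 24 rose (50%) and none fell. Only 8 of the 25 listed B and plasma cell genes were measured, of which 6 rose (75%) and 1 fell (12.5%). The shares over all genes were 20.8% higher and 25.1% lower. The immunoglobulin heavy chain gene IGHA read -0.88, -0.07 and 2.89 in the border and 2.39, 4.63 and 6.29 in the core, a rise of 4.20 ± 0.35 (18.3-fold, adjusted p = 0.00265). Its highest border level, in pig 16, lay above the lowest core level, so the groups overlapped although the gene rose within each pig. PRDM1, the transcription factor of plasma cells, rose by 1.31 ± 0.18 at its brightest probe and by 1.42 at another. The third PRDM1 probe read 0.01 and did not pass. FCRLA, an Fc receptor-like protein of B cells, rose by 2.0 ± 0.34. CD79A, part of the B cell receptor, rose by 1.64 ± 0.32 and was well above background on 1 border and 5 core arrays, while MS4A1 (CD20), the other measured defining B cell marker, read 0.40 ± 0.46 and did not pass. PAX5, a B cell transcription factor, fell by 0.93 ± 0.26. Of the 4 defining T and NK cell markers 3 rose, and LCK, a kinase of T cell signalling, read 0.75 ± 0.50, higher in 3 pigs and lower in 3, and did not pass.

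The costimulatory receptor ICOS rose by 2.21 ± 0.19 (4.64-fold), NKG7, a granule protein of cytotoxic cells, by 1.43 ± 0.17, and CD247, the T cell receptor zeta chain, by 1.19 ± 0.16. CXCR6, a chemokine receptor of tissue T cells, read -5.16, -3.71 and -0.48 in the border and -2.91, -1.14 and 1.69 in the core and rose by 2.45 ± 0.17 (5.45-fold). Its levels overlapped widely between the regions, but within a pig the difference stayed between 2.12 and 3.02. The T cell list read -3.66 to -2.10 on the border arrays and -2.91 to -0.06 on the core arrays, and its median difference was smallest in pig 11 (0.06) and largest in pig 16 (1.57).

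The antigen presentation, interferon and complement lists held more genes that rose than fell. Antigen presentation genes rose in 14 of 26 cases, with IFI30, a lysosomal thiol reductase, at 1.93 ± 0.20, CD1.1, a lipid-presenting molecule, at 1.60 ± 0.21 and the class II gene SLA-DQA1 at 0.91 ± 0.13. Interferon response genes rose in 11 of 38, which is a share of 28.9% beside the 20.8% of all genes. IRF1 read 0.58 ± 0.11 and the interferon-induced chemokines CXCL11 and CXCL9 1.40 ± 0.28 and 0.96 ± 0.20. Complement genes rose in 15 of 26 and fell in 4. C3, the central component, rose by 1.22 ± 0.15 and the C5a receptor C5AR1 by 1.78 ± 0.15, while MASP1, a protease of the lectin pathway, fell by 1.47 ± 0.21 at its brightest probe and read 0.50 at its dimmest. C8G fell by 1.12 ± 0.18, C5 by 0.91 ± 0.29 and CFD by 0.47 ± 0.14.

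Of the cytokines, chemokines and their receptors 19 of 47 rose (40.4%) and 3 fell (6.38%), beside 20.8% and 25.1% of all genes. CXCL14 read -3.23, -1.12 and 0.65 in the border and 1.14, 2.68 and 3.31 in the core, a rise of 3.70 ± 0.36 (13.0-fold) without overlap. The list of the inflammasome and Toll-like receptors had 16 of 27 higher (59.3%) and 3 lower (11.1%). Caspase 1 (CASP1), which activates interleukin 1 beta, read -1.38, -0.65 and -0.28 in the border and -0.0036, 0.52 and 0.83 in the core, and rose by 1.23 ± 0.20 (2.35-fold, adjusted p = 0.00726) without overlap. IL1B itself rose by 1.83 ± 0.42 and was well above background on 4 border and 6 core arrays. TLR7 rose by 1.41 ± 0.18, LY96, the partner of TLR4, by 1.64 ± 0.25, and CD180 by 1.07 ± 0.17.

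Tumour necrosis factor (TNF) did not pass, with -0.07 ± 0.11 (adjusted p = 0.647) at its brightest probe and 0.89 at the other, also not past. CXCL8, the neutrophil chemokine, rose by 0.82 ± 0.22 at its brighter probe and by 2.48 at the other; for the brighter one, with pig 12 or 13 left out in turn it did not pass, at 0.64 to 0.79 (adjusted p = 0.0517 to 0.0701). Of the 10 measured neutrophil, mast cell and eosinophil genes 3 rose (30%, beside 20.8% of all genes). Among them were the mast cell receptor genes MS4A2 (1.05 ± 0.19) and KIT (0.70 ± 0.21). For KIT, with pig 12, 13, 14 or 16 left out in turn it did not pass, at 0.54 to 0.75 (adjusted p = 0.0616 to 0.0906). The neutrophil proteins S100A8 (0.57 ± 0.51), S100A9 (0.41 ± 0.38) and S100A12 (0.14 ± 0.54) did not pass. This list had its highest median in pig 15 (1.30), and the other 5 pigs lay between -0.35 and 0.78.

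Muscle genes fell in the core. In the sarcomere and Z disc list 23 of 30 fell and 1 rose, against 25.1% lower over all genes. The one that rose was TPM2 (0.75 ± 0.17), a tropomyosin also made by smooth muscle. Calcium cycling genes fell in 12 of 19 and ion channels and connexins in 16 of 21. The core and border levels did not overlap for 3 of 30, 3 of 19 and 3 of 21 genes of these lists, beside 8.44% of all genes. All 6 measured cardiomyocyte markers fell, by 0.47 (MYH7) to 2.0 (MB).

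The probe of myoglobin (MB), the oxygen store of red muscle, is printed as the muscle gene of the defining markers with the largest fall.

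MB: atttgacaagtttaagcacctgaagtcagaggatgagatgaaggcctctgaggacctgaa

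It read 5.25, 5.96 and 7.04 in the border and 3.30, 3.75 and 5.58 in the core, and fell by 2.0 ± 0.30 (4.01-fold lower, adjusted p = 0.00596). The core array of pig 15 kept 5.58, inside the border range, and the 5 others lay below it. Titin (TTN), the spring of the sarcomere, read 5.76, 6.97 and 7.47 and 3.67, 5.0 and 6.80 and fell by 1.55 ± 0.37 (2.93-fold lower, adjusted p = 0.0157). The beta myosin heavy chain (MYH7) fell by 0.47 ± 0.15 (adjusted p = 0.0380) at its brightest probe, which read 0.01 in the authors' deposited values; its 8 probes all fell, by up to 1.62. For the brightest MYH7 probe, with pig 11, 12, 13, 14 or 16 left out in turn it did not pass, at -0.52 to -0.35 (adjusted p = 0.0511 to 0.0943). Phospholamban (PLN), the brake of the calcium pump, fell by 1.70 ± 0.35 and the pump gene ATP2A2 by 1.92 ± 0.40, and 19 of the 20 ATP2A2 probes passed.

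Sarcoglycans, which tie the cytoskeleton to the membrane, fell by 1.54 ± 0.26 (SGCA) and 0.77 ± 0.14 (SGCD). MYOZ3, a Z disc protein, read -0.88, -0.27 and 1.48 in the border and -3.16, -2.35 and -1.83 in the core, and fell by 2.53 ± 0.31 (5.77-fold lower). Its groups did not overlap, and pig 15 had the largest fall (-3.75). CACNB2, a subunit of the L-type calcium channel, fell by 2.0 ± 0.32, HRC, a calcium-binding protein of the sarcoplasmic reticulum, by 1.47 ± 0.24, and the sodium-calcium exchanger SLC8A1 by 1.14 ± 0.19. The potassium channel subunit KCNE1 fell by 1.15 ± 0.18 and ABCC9, of the ATP-sensitive potassium channel, by 0.93 ± 0.17. The connexin gene GJC1 rose by 0.54 ± 0.11, and ASPH, ITPR1 and ATP2B1 of the calcium list rose by 1.29 ± 0.30, 0.96 ± 0.20 and 0.70 ± 0.14.

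The largest falls were mostly outside the sarcomere, though the Z disc gene MYOZ3 (-2.53), given above, was among them. Cholecystokinin (CCK), a peptide hormone best known from gut and brain, read 6.78, 8.04 and 8.50 in the border and 2.52, 3.81 and 6.52 in the core. No core array reached the border range, and CCK fell by 3.67 ± 0.54 (12.8-fold lower, adjusted p = 0.00588), the largest fall among genes lower in all 6 pigs. ASB15, a muscle gene of the ubiquitin ligase family, fell by 2.81 ± 0.52 (7.03-fold), FRMD5, a FERM-domain protein, by 2.74 ± 0.64, and the prolactin receptor PRLR by 2.62 ± 0.43, with 1 core array well above background. COX8H, a muscle form of a cytochrome oxidase subunit, fell by 2.36 ± 0.40. The alpha-1A adrenergic receptor ADRA1A fell by 2.35 ± 0.36 and the beta-1 receptor ADRB1 by 1.14 ± 0.16. DPP4, a peptidase of the cell surface, fell by 2.33 ± 0.46, the retinoid receptor RXRG by 2.31 ± 0.39, the integrin chain ITGB6 by 2.35 ± 0.45, FAM216B by 2.31 ± 0.53 and FITM1, which forms lipid droplets, by 2.30 ± 0.35.

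Energy metabolism gave the 4 lists with the largest shares of lower genes among the 43. Of the respiratory chain and ATP synthase genes 32 of 33 fell, and of the TCA cycle and ketone genes 23 of 27. Of the fatty acid oxidation genes 31 of 38 fell, and of the creatine kinase, adenylate kinase and myoglobin group 13 of 14. The share lower over all genes was 25.1%. The ATP synthase subunit ATP5D read 6.18, 7.05 and 7.99 in the border and 4.28, 5.36 and 7.24 in the core and fell by 1.48 ± 0.25 (2.79-fold lower). NDUFS6, a subunit of complex I, fell by 1.45 ± 0.25, IDH3B, of the TCA cycle, by 1.81 ± 0.32, SUCLG1 by 1.60 ± 0.26 and PDK2, which restrains pyruvate entry, by 1.35 ± 0.23. For ATP5D and IDH3B the core level of pig 15 was within the border range.

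The fatty acid importer SLC27A1 fell by 1.07 ± 0.17 without overlap, PNPLA2, the triglyceride lipase, by 1.55 ± 0.26 and DECR1, of unsaturated fatty acid breakdown, by 1.12 ± 0.20. Adenylate kinase AK1 fell by 2.01 ± 0.28, and PRKAG3, a muscle subunit of the energy sensor AMPK, by 2.21 ± 0.24 (4.63-fold lower) without overlap. Mitochondrial ribosome and import genes fell in 17 of 21 cases, with MRPL3 at -0.91 ± 0.14, MRPS11 at -1.1 ± 0.18 and MRPS18B at -1.25 ± 0.21. Glycolysis and glucose uptake genes fell in 19 of 27 (70.4%, beside 25.1% of all genes), among them PGM1 (-1.28 ± 0.17) and TPI1 (-1.11 ± 0.16).

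Across the lists of the respiratory chain, TCA cycle, fatty acid oxidation and glycolysis 6 genes rose, picked out here after their values were seen: CPT1A, the liver form of carnitine palmitoyltransferase (0.90 ± 0.18), ACSL5, an acyl-CoA synthetase (0.63 ± 0.14), LDHA, the lactate dehydrogenase chain of glycolytic tissue (0.80 ± 0.17), the glucose transporter SLC2A6 (1.84 ± 0.19), COX6A1, the non-muscle form of a cytochrome oxidase subunit (0.47 ± 0.14), and the cytosolic malic enzyme ME1 (0.69 ± 0.14). All 6 rose in 6 of 6 pigs. SLC2A6 read -3.34, -2.80 and -1.59 in the border and -1.70, -0.69 and -0.35 in the core.

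Transcription factors of the heart fell in 11 of 16 cases (68.8%) and rose in 2 (12.5%), beside 25.1% and 20.8% of all genes. Myocardin (MYOCD), a coactivator in cardiac and smooth muscle, fell by 1.67 ± 0.21, GATA4 by 0.92 ± 0.12, PROX1 by 1.53 ± 0.22 and MEF2C by 0.55 ± 0.18. For MEF2C, with pig 12, 13, 14, 15 or 16 left out in turn it did not pass, at -0.57 to -0.45 (adjusted p = 0.0805 to 0.121). SIX4 and HOPX rose by 2.85 ± 0.70 and 1.40 ± 0.38. Ubiquitin ligases and autophagy genes fell in 7 of 12 (58.3%), with TRIM55 (-1.77 ± 0.34) and ASB2 (-1.83 ± 0.37), both muscle genes. Antioxidant genes fell in 17 of 34 (50%) and rose in 3 (8.82%). NQO1 read -0.98 ± 0.13, PRDX6 -0.86 ± 0.12 and TXNRD2 -1.13 ± 0.18. Haem oxygenase 1 (HMOX1), which breaks down haem, rose by 1.26 ± 0.24 and ferritin light chain (FTL) by 0.58 ± 0.10. Heat shock genes fell in 11 of 21 (52.4%) and rose in 5 (23.8%, near the 20.8% of all genes). HSPB2 read -1.12 ± 0.24, HSPA1L -0.95 ± 0.18 and HSPA6 1.41 ± 0.14.

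The natriuretic peptides, hormones of the stressed heart, did not pass the test. NPPA read 1.97, 3.30 and 4.02 in the border and 2.42, 4.16 and 6.61 in the core, with 1.22 ± 0.79 on average (adjusted p = 0.241), higher in 3 pigs and lower in 3. NPPB read -0.08, 4.34 and 6.52 and 5.99, 6.49 and 8.47, with 2.79 ± 1.13 (adjusted p = 0.0840), higher in 4 of 6. Both had wide spread between pigs, and the NPPB value of pig 11 (8.55) came from a border level of -0.08. Angiotensinogen (AGT), the precursor of angiotensin, fell by 1.87 ± 0.30, while endothelin 1 (EDN1), a vasoconstrictor, rose by 1.05 ± 0.20. Of the stress and hormone list 8 of 24 fell (33.3%, beside 25.1% of all genes) and 1 rose.

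Vessel genes showed no common direction. Of 30 measured endothelial genes 7 were higher (23.3%, near the 20.8% of all genes) and 2 lower (6.67%, beside 25.1%), with a median of 0.06. None of the 4 defining markers passed: PECAM1 read 0.10 ± 0.11 (adjusted p = 0.496), CDH5 -0.08 ± 0.12, VWF -0.39 ± 0.14 and KDR -0.17 ± 0.22. PECAM1 read 3.81, 4.27 and 4.90 in the border and 4.0, 4.33 and 4.77 in the core, nearly the same range. The adhesion molecules of activated endothelium rose, E-selectin (SELE) by 2.27 ± 0.40 and P-selectin (SELP) by 1.47 ± 0.26, whereas CLDN5 and DLL4, of tight junctions and of Notch signalling in arteries, fell by 0.65 ± 0.14 and 0.95 ± 0.22. VEGFA, the main vessel growth factor, fell by 1.20 ± 0.20 (2.30-fold lower, adjusted p = 0.00729) and FGF1 by 1.84 ± 0.30. FGF7, a fibroblast growth factor of mesenchyme, and its receptor gene FGFR2 rose by 2.0 ± 0.47 and 1.11 ± 0.31.

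Smooth muscle actin (ACTA2), the marker of myofibroblasts and of vessel walls, depended on the probe. Its brightest probe read -0.56 ± 0.27 and did not pass (adjusted p = 0.128), while 4 of its 7 probes rose by 2.15 to 2.36. Which of these probes reads ACTA2 alone was not tested.

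Of the smooth muscle and pericyte list 3 of 15 rose (20%) and 5 fell (33.3%), beside 20.8% and 25.1% of all genes. MYLK, the myosin light chain kinase, rose by 1.27 ± 0.22, and KCNJ8, a pericyte potassium channel, fell by 1.34 ± 0.25. CNN1 read 0.97 ± 0.41 and did not pass, and SMTN fell, at -1.11 ± 0.25.

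Lists of other tissue that a heart sample can hold did not share 1 direction. Over all genes 20.8% were higher and 25.1% lower. Of 9 mesothelium and epicardium genes 4 rose (44.4%) and none fell, with a list median of 1.00 that was positive in 6 of 6 pigs. TBX18 rose by 1.96 ± 0.34 and TCF21, which epicardium-derived fibroblasts keep, by 1.07 ± 0.31. For TCF21, with pig 11, 13 or 14 left out in turn it did not pass, at 0.89 to 0.92 (adjusted p = 0.0742 to 0.0876). The keratins KRT8 (0.33 ± 0.78) and KRT18 (0.38 ± 0.75) did not pass. Of the adipocyte list 2 of 18 rose (11.1%), SCD by 1.98 ± 0.22 and CEBPA by 1.61 ± 0.20, both also expressed outside fat. In the same list 5 fell (27.8%, near the share of all genes), with hormone-sensitive lipase LIPE at -1.96 ± 0.36. The defining marker ADIPOQ read -0.07 ± 0.73. Nerve genes rose in 3 of 14 (21.4%, near the share of all genes), with GFAP at 1.14 ± 0.27 and GAP43 at 0.65 ± 0.18. The median of the nerve list turned negative with normexp correction. DBH, of noradrenaline synthesis, fell by 0.42 ± 0.10. For GAP43, with pig 11, 13, 14 or 16 left out in turn it did not pass, at 0.53 to 0.67 (adjusted p = 0.0567 to 0.0792), and for DBH, with pig 13 or 16 left out in turn it did not pass, at -0.41 to -0.37 (adjusted p = 0.0515 to 0.0527). Of 6 red cell genes 2 fell, CA1 by 1.06 ± 0.15 and HBZ by 0.45 ± 0.11.

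Growth factor pathways had members on both sides. In the TGF-beta and BMP family 13 of 36 rose and 5 fell. The receptor TGFBR1 read -3.60, -3.25 and -2.87 in the border and -2.09, -1.95 and -1.48 in the core and rose by 1.37 ± 0.17 without overlap. ID2, a target of BMP signalling, rose by 1.90 ± 0.27 and SMAD7, an inhibitor, by 0.77 ± 0.14, whereas BMP5 fell by 1.41 ± 0.30, the receptor ACVR1B by 0.93 ± 0.22 and SMAD3 by 0.42 ± 0.11. In the Wnt and Notch list 8 of 18 rose and 3 fell: the Wnt transcription factor LEF1 rose by 1.38 ± 0.20 and the Wnt regulator DKK2 by 2.36 ± 0.37, while the Wnt inhibitor DKK1 fell by 1.94 ± 0.35 (3.83-fold lower). LEF1 and DKK1 did not overlap between the regions, in opposite directions. Of 17 insulin-like growth factor genes 5 rose and 5 fell (29.4% each, beside 20.8% and 25.1% of all genes). IGFBP2 rose by 1.06 ± 0.14, and IGFBP5, GHR and STC2 fell by 0.80 ± 0.13, 0.84 ± 0.14 and 1.64 ± 0.31.

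Cell cycle genes rose in 15 of 32 and none fell. TOP2A, a topoisomerase of dividing cells, rose by 0.88 ± 0.13 and MCM3, of the replication helicase, by 1.16 ± 0.20. The mitotic kinesin KIF23 was not well above background on any border array and was at least 1.55-fold higher in the core (adjusted p = 0.00838), a difference that vanished with normexp correction. Apoptosis genes rose in 8 of 22 and fell in 4, with BCL2A1, a survival protein of leukocytes, at 1.38 ± 0.15 and PMAIP1 at 1.70 ± 0.30. Of 23 integrin and laminin genes 5 were higher and 5 lower (21.7% each, close to the 20.8% and 25.1% of all genes), with a median of 0.07 that turned negative with normexp correction, LAMB1 at 1.04 ± 0.13 and CDH13 at -1.24 ± 0.15 being past the test. Cytosolic ribosome genes had a median of -0.13 that was positive under quantile scaling (0.36) and in the authors' deposited values (0.32); 1 of 47 rose, RPL3 (0.74 ± 0.21), and 5 fell, with RPLP0 (-0.38 ± 0.11) changing sign under the same scalings. For RPL3, with pig 11, 13, 14 or 16 left out in turn it did not pass, at 0.61 to 0.81 (adjusted p = 0.0511 to 0.0829), and for RPLP0, with pig 11, 12, 13, 14 or 16 left out in turn it did not pass, at -0.40 to -0.32 (adjusted p = 0.0514 to 0.0813).

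The 6 pigs differed in how far core and border stood apart. The median size of the difference over genes was 0.24 in pig 15, 0.37 in pig 12, 0.42 in pig 16, 0.46 in pig 11, 0.64 in pig 13 and 0.69 in pig 14. Pig 15 had the smallest difference in 1091 of the 1489 lower genes with values in all pigs (73.3%), and in 290 its sign was opposite. Its median over those genes was -0.19, compared with -1.14 in pig 13 and -1.15 in pig 14. Among the higher genes pig 15 had the smallest difference in 569 of 1231 (46.2%). These genes were called on the same 6 pigs, so the shares describe the animals and are not a test.

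In pig 15 the list medians were -0.08 for the sarcomere, -0.12 for the respiratory chain and -0.09 for fatty acid oxidation, but 1.08 for macrophage genes, close to the middle of the other pigs. The sarcomere list read 6.61 in its border and 6.50 in its core, next to 6.77 in its normal region. In pig 13, by contrast, the list read 6.70 in the border and 4.56 in the core. A few genes fell in the core of pig 15 as strongly as elsewhere: MYOZ3 read -3.75, FAM216B -3.07, LIPM, a lipase family member, -3.03, PRKAG3 -2.48 and DKK1 -2.44, which were picked out after their values were seen. The neutrophil list was also highest in this pig, as given above. The part that the mix of tissue in each sample has in these values was not tested.

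**Figure D3:**
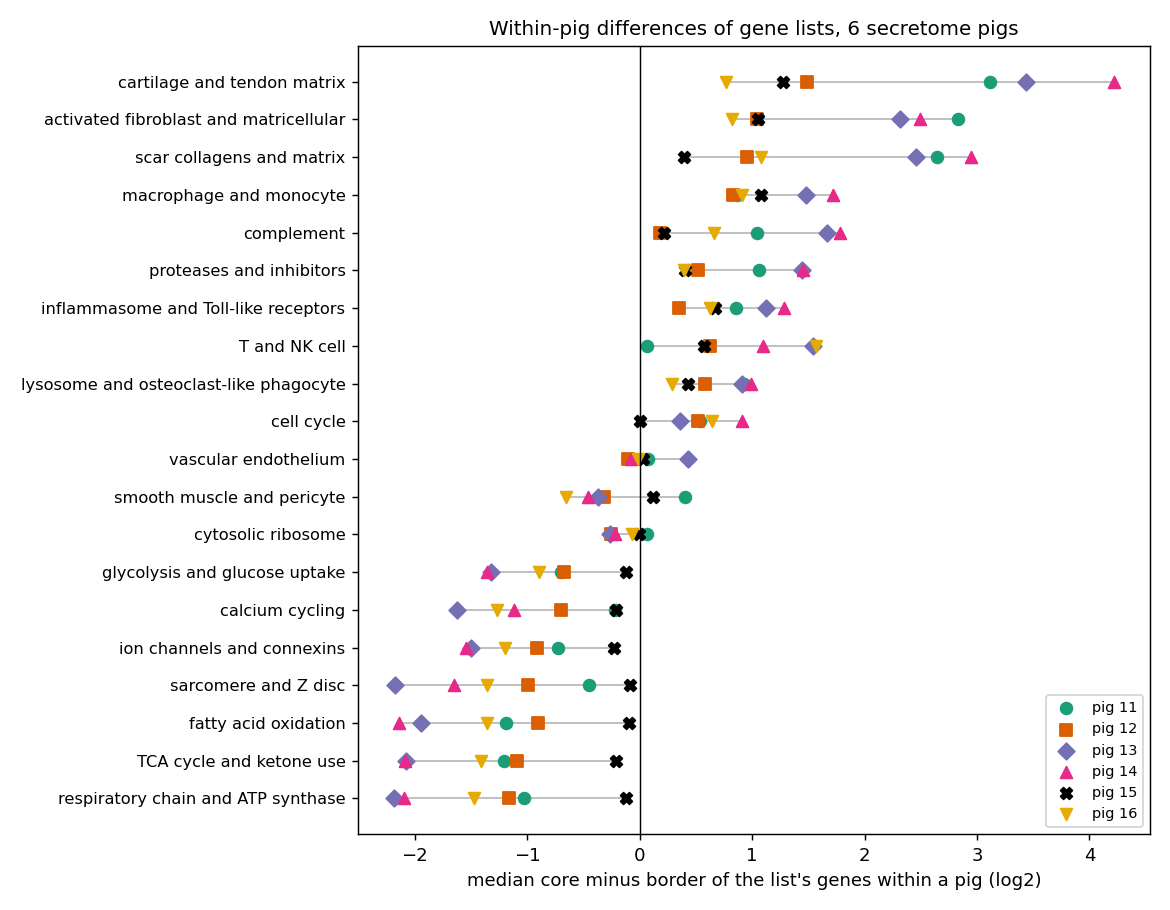
Median core minus border difference (log2) of the genes of 20 lists within each of the 6 secretome pigs, with 1 symbol per pig and a grey line from the lowest to the highest pig. Pig 15 (black crosses) lies near 0 for muscle and metabolism lists, at -0.08 for the sarcomere and -0.12 for the respiratory chain, but at 1.08 for macrophage genes, where all pigs lie between 0.83 and 1.72.

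The spread of list levels between pigs differed by region and by list. The activated fibroblast list read -0.44 to 2.47 on the border arrays and 3.55 to 4.69 on the core arrays, with an SD between pigs of 1.12 in the border and 0.40 in the core. For the sarcomere list the levels were 6.23 to 6.85 on the border arrays and 4.56 to 6.56 on the core arrays, with SDs of 0.24 and 0.86, and for the respiratory chain 0.42 and 0.78. The scar list had SDs of 0.66 and 0.58, calcium cycling 0.39 and 0.37, ion channels 0.34 and 0.30, and the cardiac transcription factors 0.63 and 0.37, so that the muscle lists had no common pattern. The macrophage list had SDs of 0.32 and 0.43. Over genes, the SD was larger in the border for 50.7% of the higher and 22.9% of the lower genes, and for 40.2% of all 5936 genes. No test of these SDs was made.

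**Figure D4:**
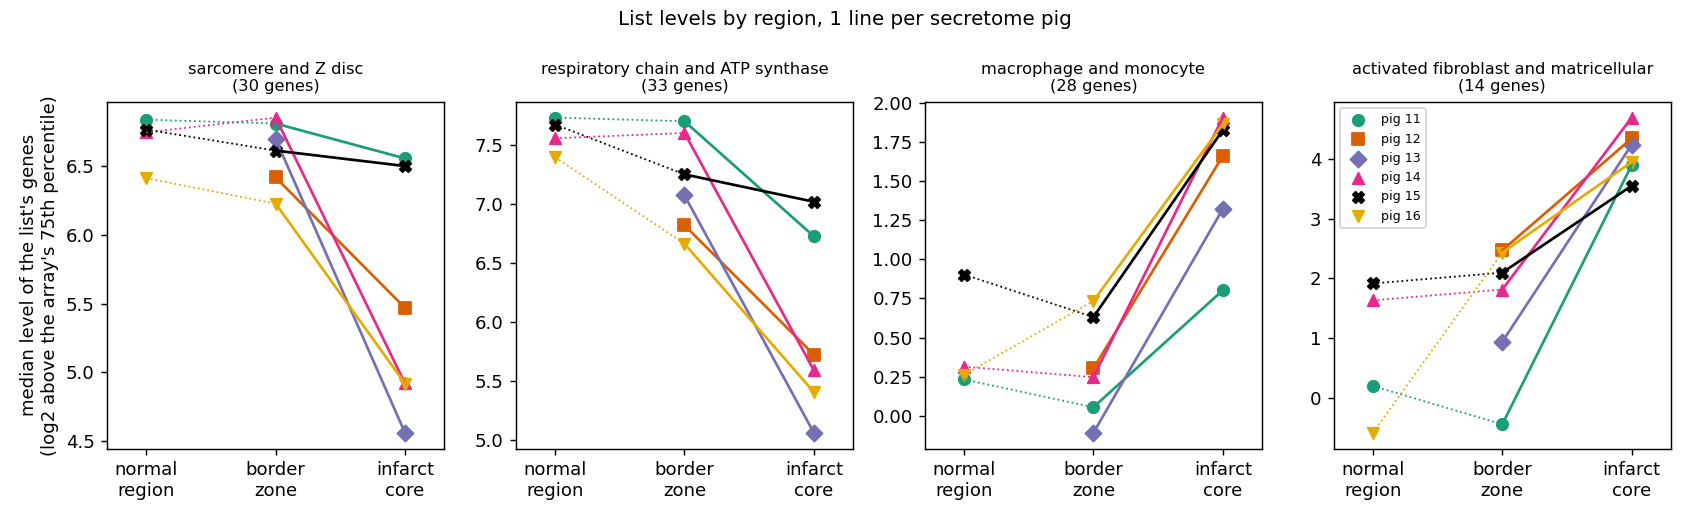
Median level of the genes of 4 lists (log2 relative to the array's 75th percentile) in the normal region (4 pigs, dotted lines), border zone and infarct core (6 pigs, solid lines). The activated fibroblast levels run from -0.44 to 2.47 in the border and from 3.55 to 4.69 in the core, while the sarcomere levels run from 6.23 to 6.85 in the border and from 4.56 to 6.56 in the core.

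Pig 11 had the border with the least scar matrix, at -0.44 for the fibroblast list against 0.94 to 2.47 in the others, and a core level (3.89) within their range. The single gene whose difference varied most, CRABP1, a binding protein of retinoic acid, read -4.72, 2.69 and 4.87 in the border and 3.57, 5.54 and 7.03 in the core. Its border level in pig 11 was -4.72 and its difference there 9.45; over all pigs it rose by 3.52 ± 1.15 (adjusted p = 0.0434), and with pig 11, 12, 13 or 14 left out in turn it did not pass, at 2.34 to 3.91 (adjusted p = 0.0544 to 0.111). In pig 16 the cartilage list read -1.90 in its border and -2.10 in its core, while the 5 other borders read -5.32 to -2.75. Its median difference for that list (0.77) was the smallest of the 6, although its sarcomere difference (-1.36) was not. In the scar and fibroblast lists the border of pig 12 was the highest, at 2.20 and 2.47, next to 1.90 and 2.43 in pig 16.

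**Figure D5:**
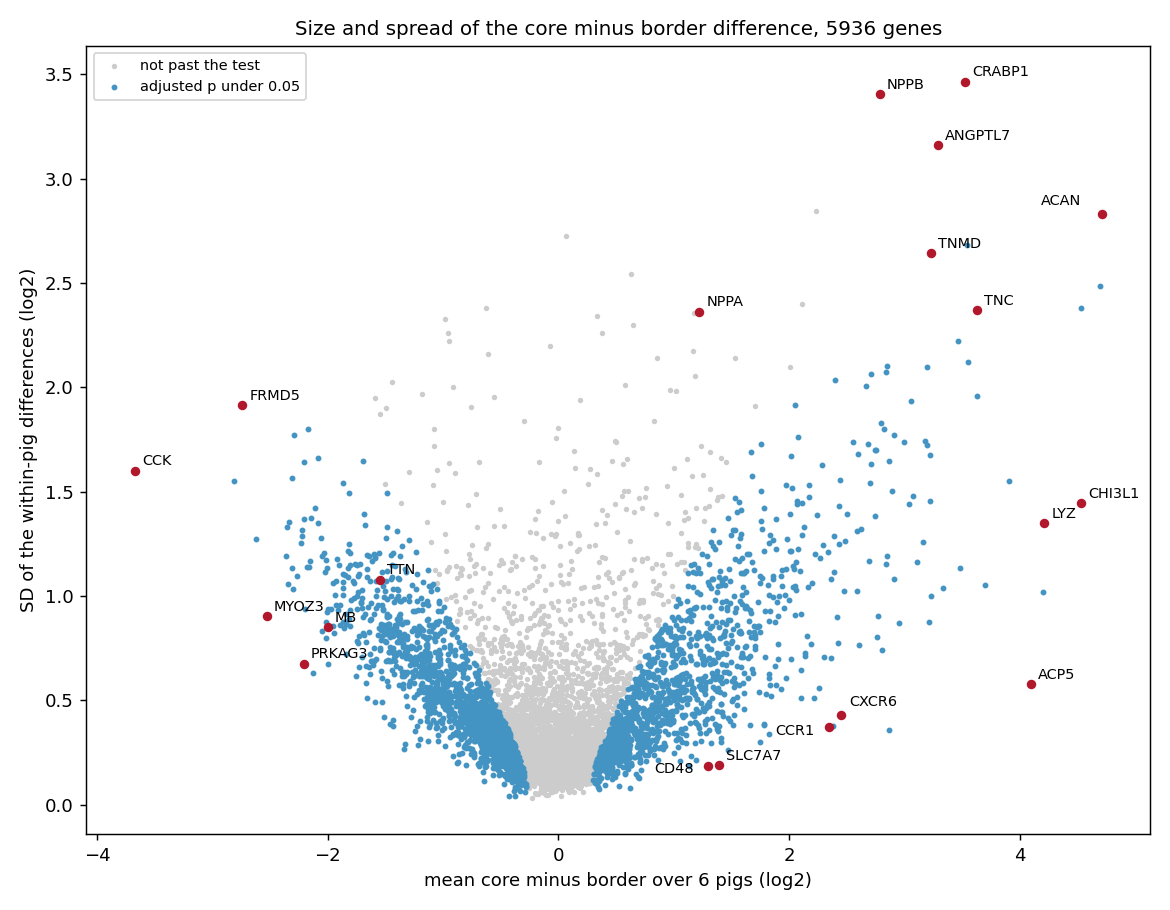
Mean core minus border difference over 6 pigs (log2, horizontal axis) against the SD of the 6 within-pig differences (log2, vertical axis) for 5936 genes, with genes past the test in blue, others in grey and 20 named genes in red. ACP5 combines a difference of 4.09 with a small SD, CCR1, CD48, SLC7A7 and CXCR6 lie low, and CRABP1, ANGPTL7, ACAN and NPPB lie high, NPPB without passing.

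The normal region of 4 of these pigs shows on which side the difference lay. Over the genes higher in the core, the median against the normal region of the same pig was 0.81, 1.33, 0.57 and 1.28 for the core of pigs 11, 14, 15 and 16. For the border it was -0.11, -0.05, 0.09 and 0.53. Over the lower genes the core read -0.67, -1.16, -0.30 and -1.20, and the border 0.01, -0.01, -0.11 and -0.42. Of the 4 border medians that of pig 16 was the farthest from the normal region in both sets of genes. The genes were chosen on the core and border arrays, so these medians are a description.

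No difference between the arms in the core minus border contrast passed. Of 33202 probes 0 differed (0%) in a limma fit over 9 pigs (1180 at an unadjusted p under 0.05, smallest adjusted p = 0.869, and from 0.0612 without pig 18 to 0.9999 over the alternatives). In pigs 10, 18 and 40 of the medium arm the median difference was 1.82, 0.63 and 1.79 for the scar list, 1.46, 0.81 and 1.21 for macrophage genes, -1.48, -0.77 and -5.14 for the sarcomere and -1.72, -0.74 and -2.98 for the respiratory chain. The border array of pig 40 stood apart, with a 75th percentile of 210.1 and 61.5% of probes well above background, the lowest of the 24 arrays in both, and it lay on another slide than the core array of that pig. The cytosolic ribosome median of pig 40 was -1.60, next to -0.03 and -0.02 in pigs 10 and 18. Without pig 40 the arm test also called 0 probes. With 3 medium pigs the test is coarse, and a p that misses the threshold does not show that the arms were alike.

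The genes with the smallest p for the arm difference, none of them past, were LIPM, ADAMTS5, DNAL4, SERPINE3 and LYVE1. The secretome minus medium difference of the contrast was -2.80 ± 0.57 for LIPM, -1.21 ± 0.25 for ADAMTS5, a protease that cuts aggrecan, -1.25 ± 0.26 for DNAL4, -2.49 ± 0.52 for SERPINE3 and -1.95 ± 0.44 for LYVE1, a hyaluronan receptor of lymphatic vessels. LIPM differed by -3.03 to -0.23 within the secretome pigs and by 1.34, 0.33 and 1.13 within the medium pigs. Core minus border in the secretome pigs read -0.24 ± 0.15 for ADAMTS5, 0.03 ± 0.16 for SERPINE3 and -0.14 ± 0.22 for LYVE1, none past, and -0.47 ± 0.10 for DNAL4, past. SERPINE3 and LYVE1 changed sign with the setting, and LIPM was well above background on 5 of 6 arrays in each region.

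The test of a difference between the scan series of the secretome arm called 0 of 33202 probes (0%; 1580 at an unadjusted p under 0.05, smallest limma adjusted p = 0.457, and 0.286 to 0.914 under other scalings). The genes with the smallest p were ADAMTS20 (-2.65 ± 0.30), IL5 (1.72 ± 0.29), OASL (1.81 ± 0.30), FATE1 (1.97 ± 0.36) and NR1D1 (1.46 ± 0.28), given as series 2 minus series 1. The list medians of both series had the same sign for scar matrix (1.52 in series 1 and 1.97 in series 2), macrophage genes (1.05 and 1.24), the sarcomere (-1.53 and -0.74) and the respiratory chain (-1.62 and -1.09).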

How the data were processed

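Heart muscle RNA of 24 samples was hybridised to Agilent porcine arrays in 1 colour, each sample on its own array, with 100 ng of RNA and an RNA integrity number above 6 per the labels' protocols. Arm, pig and region come from the labels, and pigs 10, 18 and 40, marked there as not treated, are taken as the medium arm. The deposited files give each spot's intensity as scanned; per the file headers, version 10.7.3.1 of Agilent's Feature Extraction subtracted background and removed spatial trends. The authors' deposited values are log2 values of 33348 probes, and the submitters' processing notes name limma 3.14.4. All 24 columns correlated best with the array of the same sample over probe deviations (0.750 to 0.835). With column medians of 7.684 to 7.692, the values are log2 levels brought to 1 common centre; how is not given in the sources used here.

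Outlier spots (1 to 21 per array) were left out, spots of a probe averaged, and the processed signal scaled to each array's 75th percentile on the log2 scale. Probes well above background on at least 3 of the 12 arrays were kept, 33202 of 43603. The fit (limma 3.58.1, R 4.3.3, lmFit and eBayes) has the pig as a fixed block, with Benjamini-Hochberg adjustment over all kept probes. Core and border of a pig come from the same animal: their probe deviations correlated at 0.458 to 0.768 in 6 of 6 pigs, with a mean of 0.497 over 12 pairs of other pigs of the same scan series and -0.537 over 18 pairs across series. Those 12 pairs ranged from 0.182 to 0.615. The core of pig 15 correlated more with the border of pig 11 (0.615) than with its own (0.458). The core of pig 14 correlated more with the border of pig 15 (0.536) than with its own (0.483). The pigs are separate animals, and 30 probes lacked a pair after outlier spots were removed. No 2 arrays were identical (highest correlation 0.992).

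Of 43603 probes, 9016 were named by RefSeq accession, 1299 by gene ID, 3302 by the name in the array files, 242 by that name kept as written, 30 by the description there, 1 matched several genes and 29713 had no name. A gene was read from its brightest kept probe. Named genes follow a rule: the 12 highest and 12 lowest differences past the test with 1 sign in 6 pigs, the 3 members of each list with the smallest p, a set of fixed genes, the 5 genes with the smallest p for the arm and scan series differences, and the 5 called genes of at least 2-fold whose differences vary most and least, 179 in all. Other genes are said to be picked after their values were seen, or are members that passed against their list's median. The pigs, gene lists and fixed genes were chosen with earlier results of these data known.

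A gene below background on a whole group has only a bound, written as at least N-fold. In data simulated for this comparison (33172 probes, 200 changed) the fit recovered 0 of 200 at 1.5-fold, 100 at 2-fold and 166 at 4-fold, with 0, 7 and 5 unchanged probes called. The number of arrays limits the precision. Alternatives were other scalings, normexp with an offset of 50, the authors' values, other filters, other treatments of pig, slide and scan series, and leaving out each pig. Tables and figures were made in Python 3.11.15 (pandas 2.3.3, numpy 2.4.6) and drawn with matplotlib 3.10.9, with statmod 1.5.0 and version 1.17.8 of data.table in R. Probe positions in the genome were not analysed here, and some genes that the rule names are not reported here.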

Additional observations from a re-analysis of the deposited data

Results flagged for a closer look

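Among the 6 border levels, 6 core levels and 6 differences of each named gene, 1 pig stood apart from the others in 18 of 537 such groups (3.35%), and in 2 of the 43 list medians; chance puts about 1 in 20 groups there. A pig stood apart when its gap to the nearest other pig, as a share of the group's range, passed Dixon's critical value for 6 samples.

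Pig 11 stood apart most often. Its border levels of TOP2A (-4.09, nearest -2.89), PGM1 (-0.36, nearest 3.39) and CRABP1 (-4.72, nearest 1.92) and its core levels of PGM1 (-1.59, nearest 2.22), TLR7 (-3.68, nearest -2.06), LIPA (2.77, nearest 3.64) and SLC7A7 (1.08, nearest 1.83) were low. PGM1 was low in both regions of this pig, so its difference was like that of the others. The red cell list median of pig 11 was 0.08 (nearest -0.31).

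In pig 15 the core levels of PRLR (-3.24, nearest -5.85) and of MYOCD (2.33, nearest 0.93) were high, and the TNF difference was 0.31 (nearest -0.03). In pig 16 the border level of CXCL9 was high (1.40, nearest -0.77), and those of AGT (2.14, nearest 3.15) and MS4A2 (-3.81, nearest -2.92) were low. Pig 13 had a high HSPB2 border level (6.03, nearest 5.56), a GFAP difference of 2.66 (nearest 1.08) and an endothelium list median of 0.43 (nearest 0.07). Pig 12 had a high MATN3 border level (-4.73, nearest -6.72) and a high CTSK core level (6.38, nearest 5.48), and pig 14 a low LIPM border level (-7.37, nearest -0.96).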

How the results depend on the processing

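The number of called probes (13456, with 6157 higher and 7299 lower) stayed within 1.5 times under quantile scaling, both other percentile and background settings, both other probe filters, a random replicate block, all 24 arrays, a slide term and an intensity trend. It fell to 5978 (3141 higher, 2837 lower) with no replicate block. Scan series 1 alone gave 3957 higher probes and scan series 2 alone 0 called, 0 higher and 0 lower. The authors' values, with 25333 of the probes, gave 4667 lower. With 1 pig left out, limma called 7525 to 15761 probes, 3628 to 7178 higher and 3897 to 8583 lower. The arm difference called 0 probes under each alternative and 0 with each pig left out, and the scan series difference 0 under each alternative run.

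Of 179 named genes 166 passed and 13 did not; 150 of the 166 passed with every pig left out in turn. With no replicate block 44 of the named genes fell short, within scan series 1 28 and within scan series 2 166. Changes of sign: with normexp KIF23 read -0.042, EPCAM -0.027 and SERPINE3 -0.185; RPLP0 read 0.160 under quantile scaling and 0.129 in the authors' values, where MYH7 read 0.007. SERPINE3 read -0.288 in scan series 2 and between -0.101 and 0.136 with 1 pig left out (-0.022 without pig 16). LYVE1 read 0.158 with a slide term, 0.174 in scan series 1 and -0.311 to 0.029 with 1 pig left out. ADAMTS20 read 0.612 in scan series 1, IL5 0.573 in scan series 2 and OASL -0.223 with a slide term and -0.560 in scan series 1. The causes were not tested.

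Of 43 list medians 38 kept their sign under every alternative. The others were endothelium (-0.050 to 0.092 with 1 pig left out, lowest without pig 13), hypoxia (-0.21 to 0.072, positive without pig 12, at 0.035, or 15), nerve (-0.096 with normexp), cytosolic ribosome (0.355 under quantile scaling and 0.320 in the authors' values) and integrins (-0.034 with normexp, -0.087 in scan series 2, and -0.050 to 0.058 with 1 pig left out, negative without pig 11 or 15). The median of all genes was -0.07 as reported, -0.12 with normexp and -0.01 under quantile scaling. With 6 pairs and a low signal for many genes, a difference of 2-fold or more can also go uncalled, as can one in probes near background. In the simulated data 100 of 200 changes of 2-fold and 166 of 200 changes of 4-fold were recovered.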
